A study of Mus musculus with 4 samples.

Results

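The 9 genes described here encode the enzymes that make serine from a glycolytic intermediate and pass its carbon into the folate cycle: *Phgdh*, *Psat1* and *Psph* of serine synthesis, *Shmt1* and *Mthfd1* of the cytosolic folate cycle, and *Shmt2*, *Mthfd2*, *Mthfd1l* and *Aldh1l2* of the mitochondrial one. They were chosen by name, with earlier results of these arrays known, and each was read from the probe set selected on its mean over the 4 arrays. Each of the 9 had 1 probe set of its own among the 19938 genes with one. Transcripts were measured on whole-transcript oligonucleotide arrays, 1 per sample, and values are RMA intensities (background-corrected, normalised between arrays and taken as log2). Tc17 cells, which produce IL-17, were cultured for 2 days with IL-2, IL-6, TGF-β and an antibody against IFN-γ (2 arrays). CTLs, cytotoxic T lymphocytes, were cultured for the same time with IL-2 and the same antibody (2 arrays). Both were grown from CD8+ T cells of wild-type C57BL/6 mice, taken from spleens and lymph nodes by magnetic negative selection. Per the study's methods, mice were matched for age and sex, and Tc17 cultures were primed through CD3 and CD28. The labels call the replicates biological but do not say whether they came from separate animals, so the spread between arrays may be technical. Each p-value rests on that spread, mostly as shared over all genes tested and less on the values of the gene itself.

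Serine supplies both glycine and one-carbon units. PHGDH, PSAT1 and PSPH convert 3-phosphoglycerate to serine in turn, and the serine hydroxymethyltransferases split serine into glycine while loading a carbon onto tetrahydrofolate. In proliferating cells this mostly happens in the mitochondrion, where SHMT2, MTHFD2 and MTHFD1L turn the carbon into formate, which is exported and used in the cytosol by MTHFD1 for purine and thymidylate synthesis. T cells are known to induce this pathway upon activation, and MYC and ATF4 are known activators of many of its genes.

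Cultures matched their labels. *Il17f* averaged 8.96 in Tc17 cells and 3.15 in CTLs, and *Ifng* averaged 6.07 in Tc17 cells and 10.33 in CTLs. The T cell genes *Cd8a*, *Cd8b1*, *Cd3e* and *Cd3g* lay between 8.78 and 10.66 in Tc17 cells and between 7.96 and 9.64 in CTLs, and *Cd8a* (0.67), *Cd3e* (0.86) and *Cd3g* (1.00) were higher in Tc17 cells (log2 differences, limma adjusted p of at most 0.00838). Of 20 markers of CD4 T, B, myeloid, NK, dendritic and erythroid cells, 18 had a probe set, and these lay between 1.92 and 3.40 in Tc17 cells and between 2.09 and 3.40 in CTLs, where the array medians were 3.18 to 3.20. Of these, 8 passed the filter on dim genes and none of them differed at the threshold.

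Of the 9 enzymes, 8 were lower in Tc17 cells than in CTLs at a limma adjusted p under 0.05 and 0 were higher. Of the 14953 genes tested, 7.44% were lower and 8.22% higher. None of the 9 was higher at an unadjusted limma p under 0.05, where 2130 of the 14953 genes tested were. Among 9 genes, counts of 0 higher are close to these shares. The enzymes were picked with results of this contrast known, so the count describes them and is no independent support for a direction. For the same 8, both Tc17 arrays lay below both CTL arrays, a pattern found in 24.8% of the genes tested. The median log2 difference (Tc17 minus CTL) of the 9 was -0.82, and that of all genes tested was 0.02. The exception was *Mthfd1l*. With whole cultures, fewer cells with a transcript and less of it per cell cannot be told apart. The 9 all passed the filter on dim genes (a mean of at least 2.59 over the 4 arrays), in each group's mean as well. The number of arrays, 2 a group, limits the precision. The count of 8 was 3 when every row of the table was tested, dim and unnamed ones included, in place of 1 probe set per gene above the filter.

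**Figure D1:**
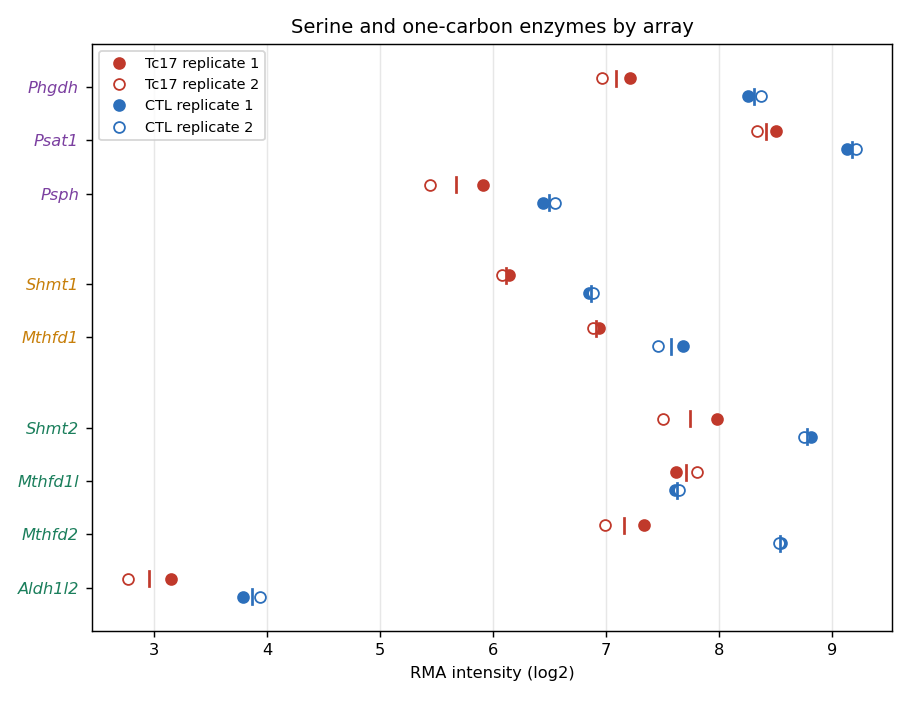
RMA intensity (log2, horizontal axis) of the 9 enzymes in each array, Tc17 in red above CTL in blue, with replicate 1 filled, replicate 2 open and vertical bars at group means. Gene names are colored by serine synthesis (purple), cytosolic folate (ochre) and mitochondrial folate (green). In 8 rows the Tc17 arrays lie left of the CTL arrays, and in the row of *Mthfd1l* they overlap, at 7.62 and 7.80 in Tc17 cells and 7.61 and 7.64 in CTLs.

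Transcripts of serine synthesis were lower in Tc17 cells at each of its 3 steps. *Phgdh*, which encodes the dehydrogenase that commits 3-phosphoglycerate to serine, was at 7.21 and 6.96 in Tc17 cells, against 8.25 and 8.37 in CTLs (log2). The groups were 1.04 apart at their nearest arrays. The difference was -1.22 ± 0.14 (log2, SE of the fit), or 2.34-fold lower in Tc17 cells (limma adjusted p = 1.52e-04). A further row of the table is annotated for *Phgdh* together with *Gm6756*, so its signal cannot be assigned to one of them. There the difference was -1.27, with means of 7.12 in Tc17 cells and 8.39 in CTLs.

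*Psat1* encodes the aminotransferase of the pathway, which takes its nitrogen from glutamate. It was at 8.50 and 8.33 in Tc17 cells, against 9.13 and 9.21 in CTLs, a difference of -0.76 ± 0.13 (1.69-fold lower, limma adjusted p = 0.00249). *Psph*, whose phosphatase releases free serine, was at 5.91 and 5.44 in Tc17 cells, against 6.44 and 6.55 in CTLs. Its difference of -0.82 ± 0.16 (1.76-fold lower, limma adjusted p = 0.00539) came with the widest spread of the 3 between Tc17 arrays, an SD of 0.33 against 0.08 for the CTL arrays. All 4 Tc17 values of *Psat1* and *Psph* were below the CTL values of the same gene.

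Transcripts of both cytosolic folate enzymes were lower in Tc17 cells. *Shmt1*, the cytosolic serine hydroxymethyltransferase gene, was at 6.14 and 6.08 in Tc17 cells, against 6.85 and 6.88 in CTLs. The difference was -0.76 ± 0.13 (1.70-fold lower, limma adjusted p = 0.00186), with SDs of 0.04 in Tc17 cells and 0.02 in CTLs. *Mthfd1*, which encodes a single cytosolic protein with synthetase, cyclohydrolase and dehydrogenase activities, was at 6.94 and 6.88 in Tc17 cells, against 7.68 and 7.46 in CTLs. The SD was 0.04 in Tc17 cells and 0.16 in CTLs, the widest CTL spread of the 9 enzymes. Its difference of -0.66 ± 0.13 (1.58-fold lower, limma adjusted p = 0.00649) was the smallest of the 8, and did not pass without CTL replicate 1 (-0.54, limma adjusted p = 0.0564).

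The mitochondrial enzymes held both the largest difference and the exception. *Mthfd2*, the mitochondrial methylene-tetrahydrofolate dehydrogenase and cyclohydrolase gene, was at 7.33 and 6.99 in Tc17 cells, against 8.55 and 8.53 in CTLs. It was 2.61-fold lower in Tc17 cells (-1.38 ± 0.14, limma adjusted p = 8.35e-05), and the nearest arrays of the groups were 1.21 apart. *Shmt2*, which encodes the mitochondrial serine hydroxymethyltransferase, was at 7.98 and 7.50 in Tc17 cells, against 8.81 and 8.75 in CTLs. Its difference was -1.04 ± 0.16 (2.06-fold lower, limma adjusted p = 0.00133). For both genes the Tc17 arrays were spread more widely than the CTL arrays, with SDs of 0.24 in Tc17 cells and 0.01 in CTLs for *Mthfd2*, and of 0.34 in Tc17 cells and 0.04 in CTLs for *Shmt2*.

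*Aldh1l2*, whose mitochondrial enzyme oxidizes formyl-tetrahydrofolate to CO2 with formation of NADPH, was dim. It was at 3.15 and 2.77 in Tc17 cells, below the array medians, against 3.79 and 3.94 in CTLs. The difference was -0.91 ± 0.15 (1.87-fold lower, limma adjusted p = 0.00211). Background signal compresses differences at such levels. The Tc17 values lay within the range of the markers of other cell types (1.92 to 3.40 in Tc17 cells). Expression of *Aldh1l2* in Tc17 cells was therefore not shown.

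*Mthfd1l*, which encodes the mitochondrial synthetase that releases formate, was at 7.62 and 7.80 in Tc17 cells, against 7.61 and 7.64 in CTLs. The groups overlapped. Its difference was 0.09 ± 0.13 (limma adjusted p = 0.749), with a 95% interval of -0.20 to 0.37 that leaves out a fall of the size seen in any of the other 8 genes. This does not show equal levels in the groups. Of the 8 intervals below 0, the one nearest to it was that of *Mthfd1*, from -0.95 to -0.36.

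**Figure D2:**
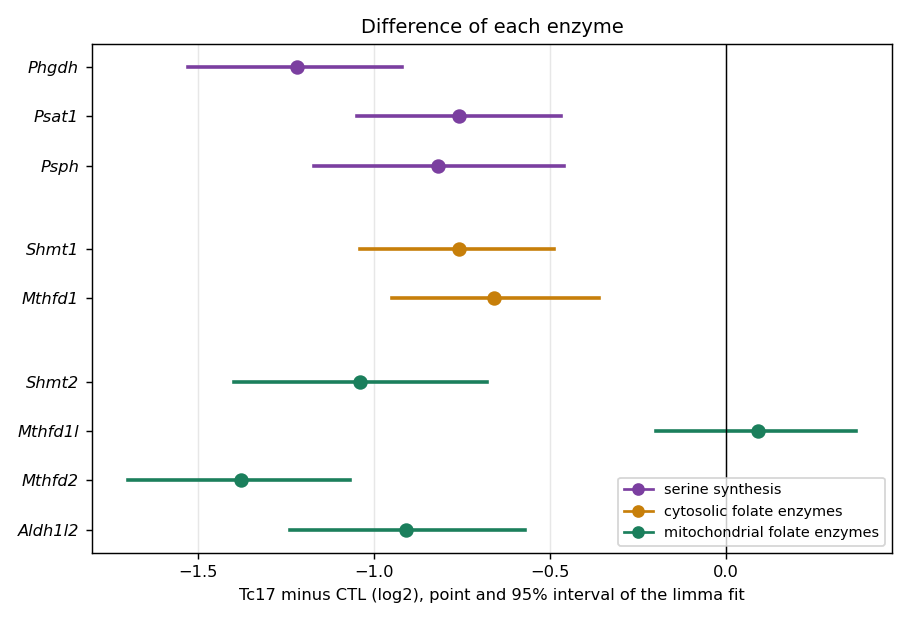
Log2 difference between Tc17 and CTL (horizontal axis) of each enzyme, with the 95% interval of the limma fit as a bar. The intervals rest mostly on a spread shared over genes. Colors mark serine synthesis, cytosolic folate and mitochondrial folate enzymes. The interval of *Mthfd1l* (-0.20 to 0.37) is the only one that includes 0, and *Mthfd2* (-1.38) lies farthest to the left.

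Set apart by compartment, the median difference was -0.71 for the 2 cytosolic enzymes, -0.97 for the 4 mitochondrial ones and -0.82 for the 3 serine synthesis enzymes. The changes of isoenzymes in the cytosol and in the mitochondrion were compared on the same arrays, 3 pairs in all. This shows unequal change of 2 transcripts, and not which of them was more abundant. The change of *Shmt2* minus that of *Shmt1* was -0.28 (-1.04 and -0.76). That of *Mthfd2* minus that of *Mthfd1* was -0.73 (-1.38 and -0.66), and that of *Mthfd1l* minus that of *Mthfd1* was 0.74 (0.09 and -0.66). In each pair the Tc17 arrays lay apart from the CTL arrays, but barely for *Shmt2* minus *Shmt1* (nearest arrays at 1.85 in Tc17 cells and 1.86 in CTLs). The exact permutation test (two-sided) therefore gave p = 0.333, the smallest that 2 arrays against 2 allow, before and after adjustment over the 3 pairs. With this p fixed by the design, the test could not decide whether the changes differed between compartments. Leaving out Tc17 replicate 2 took the *Shmt2* value to -0.06, and leaving out Tc17 replicate 1 took it to -0.49, while the other pairs stayed between -0.86 and -0.59 (*Mthfd2*) and between 0.62 and 0.87 (*Mthfd1l*) without any one array. The widest gap lay within the mitochondrion, where *Mthfd1l* and *Mthfd2*, a pair chosen after the values were seen, changed by amounts 1.47 apart (1.22 to 1.73 without any one array).

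**Figure D3:**
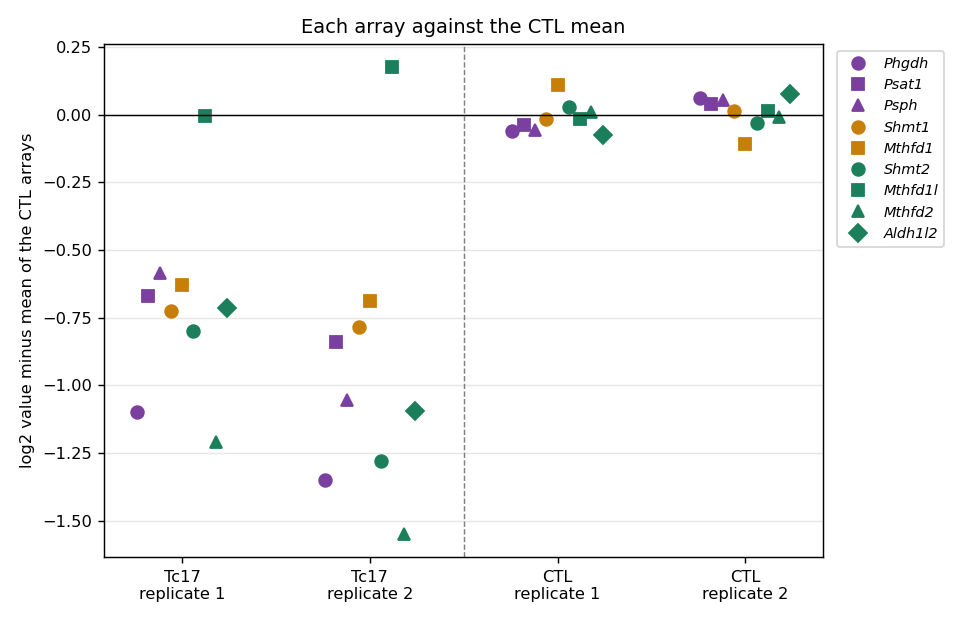
Log2 value of each enzyme in each array minus its mean over the CTL arrays (vertical axis). Points are single arrays, with a color for each group of enzymes and a shape for each gene. In Tc17 replicate 1 the 8 lower genes lie between -0.58 (*Psph*) and -1.22 (*Mthfd2*), and in Tc17 replicate 2 between -0.69 (*Mthfd1*) and -1.55 (*Mthfd2*), while *Mthfd1l* lies at 0.17 in Tc17 replicate 2.

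Windows before the start of each gene were read from RefSeq (GRCm38.p6), of which 8 members had one and *Psat1* had 2. *Aldh1l2* had none. The 120 bases before the start are shown for the member that was lowest in Tc17 cells against CTLs, for the first enzyme of serine synthesis and for the member that was not lower, 5′ to 3′ on the strand of the gene. Capitals mark CCAAT or GGGCGG, or their reverse complements.

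*Mthfd2* (chr6:83317605-83317724, minus strand): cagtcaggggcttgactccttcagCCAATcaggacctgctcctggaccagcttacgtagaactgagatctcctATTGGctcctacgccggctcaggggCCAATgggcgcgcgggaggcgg

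*Phgdh* (chr3:98339970-98340089, minus strand): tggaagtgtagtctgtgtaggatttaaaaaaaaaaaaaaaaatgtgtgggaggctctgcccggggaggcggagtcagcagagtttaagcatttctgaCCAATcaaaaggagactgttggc

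*Mthfd1l* (chr10:3972955-3973074, plus strand): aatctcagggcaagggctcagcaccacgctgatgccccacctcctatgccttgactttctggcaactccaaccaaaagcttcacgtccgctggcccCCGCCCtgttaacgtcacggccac

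The motif of the C/EBP-ATF response element (TGATGNAA) and the E-box (CACGTG), which ATF4 and MYC are known to bind, were searched on both strands of the 250 bases before each start. Neither was found in the 9 member windows, against 3.45% and 6.02% of 32851 windows of all genes. This says only that these letters are not in these windows. The CCAAT box and the GC box (GGGCGG) were added after that search. CCAAT was in 6 of the 9 windows (33.8% of all windows), with 3 copies in *Mthfd2*, 2 in *Phgdh* and 0 in *Mthfd1l* and *Shmt2*. Of the 2 in *Phgdh*, only 1 lies in the 120 bases shown. GGGCGG was in 5 of the 9 (32.7% of all), with 1 copy in *Mthfd1l* and 0 in *Mthfd2*, *Phgdh* and *Shmt2*. No match of CCAAT overlapped one of GGGCGG in the member windows. A match is a description of the sequence and not a binding site.

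Around the 9 enzymes, 35 further genes of folate handling, glycine cleavage, folate-dependent nucleotide synthesis, the methionine cycle, transsulfuration, and serine transport and breakdown were tested. Of these, 14 were lower in Tc17 cells and 2 higher (7.44% and 8.22% of all genes tested). Calls of 7 of the 16 held in each of the 4 fits without one array: *Slc25a32*, *Gart*, *Cth*, *Slc1a4*, *Slc7a5*, *Slc3a2* and *Sfxn3*. The other 9 calls were lost in at least 1 such fit.

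Among 10 other folate enzymes and carriers, 3 were lower, 0 were higher and 7 did not pass, with a median of -0.10. None of the 3 passed when every row of the table was tested (limma adjusted p of 0.0562 to 0.179). *Slc25a32*, which carries folate into mitochondria, was at 5.80 and 5.68 in Tc17 cells, against 6.45 and 6.56 in CTLs (-0.76 ± 0.13, limma adjusted p = 0.00221). *Slc19a1*, the reduced folate carrier of the plasma membrane (-0.47), and *Fpgs*, which traps folates in the cell by adding glutamates (-0.46, named after its value was seen), were the other 2, and both calls were lost in fits without one array (*Slc19a1* in each of the 4, between -0.52 and -0.43, and *Fpgs* in 3, between -0.57 and -0.35). *Mthfd2l*, the mitochondrial paralog of *Mthfd2*, was dim, at 3.08 and 3.10 in Tc17 cells and 3.13 and 3.23 in CTLs (-0.09 ± 0.13, limma adjusted p = 0.729).

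The 3 genes of thymidylate and purine synthesis that take folate carbons were each lower in Tc17 cells. *Gart*, which acts at several steps of purine synthesis, was at 7.86 and 7.62 in Tc17 cells, against 8.74 and 8.79 in CTLs (-1.02 ± 0.13, limma adjusted p = 4.47e-04). *Tyms*, the thymidylate synthase gene (-0.54), and *Atic*, which adds the last carbon of the purine ring (-0.42, named after its value was seen), passed with smaller differences. When every row of the table was tested, *Tyms* and *Atic* did not pass (limma adjusted p of 0.134 and 0.157), while *Gart* did. With cyclic loess the call of *Atic* was lost (-0.36, limma adjusted p = 0.0765). The *Tyms* call held only without Tc17 replicate 2 among the fits without one array (-0.42 without Tc17 replicate 1), and that of *Atic* in none of them (-0.44 to -0.39). Of 3 tested genes of glycine cleavage, *Dld* (-0.61) and *Gcsh* (-0.59) were lower and *Amt* was not (0.02 ± 0.14, limma adjusted p = 0.956). Without one array *Gcsh* ranged from -0.88 to -0.30 and *Dld* from -0.74 to -0.47, and both calls were lost without Tc17 replicate 2. *Gcsh* was dim, at 3.67 and 3.08 in Tc17 cells and 3.89 and 4.04 in CTLs. Its call was also lost with no filter on dim genes (limma adjusted p = 0.0642). Neither *Dld* nor *Gcsh* passed when every row of the table was tested (limma adjusted p of 0.122 and 0.293).

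In the methionine cycle, where methyl groups from folate are used, *Mtrr* (-0.52) and *Mtr* (-0.50), which encode methionine synthase reductase and methionine synthase, were lower and *Mat2b*, a regulatory subunit of S-adenosylmethionine synthase, was higher (0.63). None of these 3 passed when every row of the table was tested (limma adjusted p of 0.146 to 0.221). The 3 calls were lost without CTL replicate 1 (-0.38, -0.41 and 0.40). They were also lost on leaving out Tc17 arrays: *Mtrr* without replicate 1 (-0.40), *Mat2b* without replicate 2 (0.50) and *Mtr* without either (-0.45 and -0.56). Of 5 genes of transsulfuration and glutathione synthesis, *Cth*, whose enzyme makes cysteine from cystathionine, fell by 2.68 ± 0.13 (limma adjusted p = 2.93e-07), and the other 4 (*Cbs*, *Gclc*, *Gclm*, *Gss*) were between -0.16 and 0.15 and did not pass.

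Of 8 carriers of serine and neutral amino acids, 3 were lower, 1 was higher and 4 did not pass, with a median of -0.40. *Slc7a5* (-1.54) and *Slc3a2* (-0.92, named after its value was seen), the chains of a large neutral amino acid transporter, and *Slc1a4*, a transporter of serine and alanine (-0.93), were lower. When every row of the table was tested, *Slc1a4* did not pass (limma adjusted p = 0.0775), while *Slc7a5* and *Slc3a2* did. *Sfxn1* and *Sfxn3*, both among the 8 carriers, encode sideroflexins, and SFXN1 is known to carry serine into mitochondria. *Slc38a1* (-0.41), *Slc38a2* (-0.40) and *Slc1a5* (-0.35) did not pass (limma adjusted p of 0.0876 to 0.093). *Sfxn1* was at 7.84 and 7.88 in Tc17 cells, against 8.25 and 8.18 in CTLs, and did not pass (-0.36 ± 0.13, limma adjusted p = 0.0856). *Sfxn3* was at 6.33 and 6.41 in Tc17 cells, against 5.11 and 4.93 in CTLs, and was 2.54-fold higher (1.35 ± 0.13, limma adjusted p = 5.49e-05). Of the genes of serine breakdown and racemisation 1 was tested, *Srr*, the serine racemase gene, which was dim and did not pass (0.42 ± 0.15, limma adjusted p = 0.0901).

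**Figure D4:**
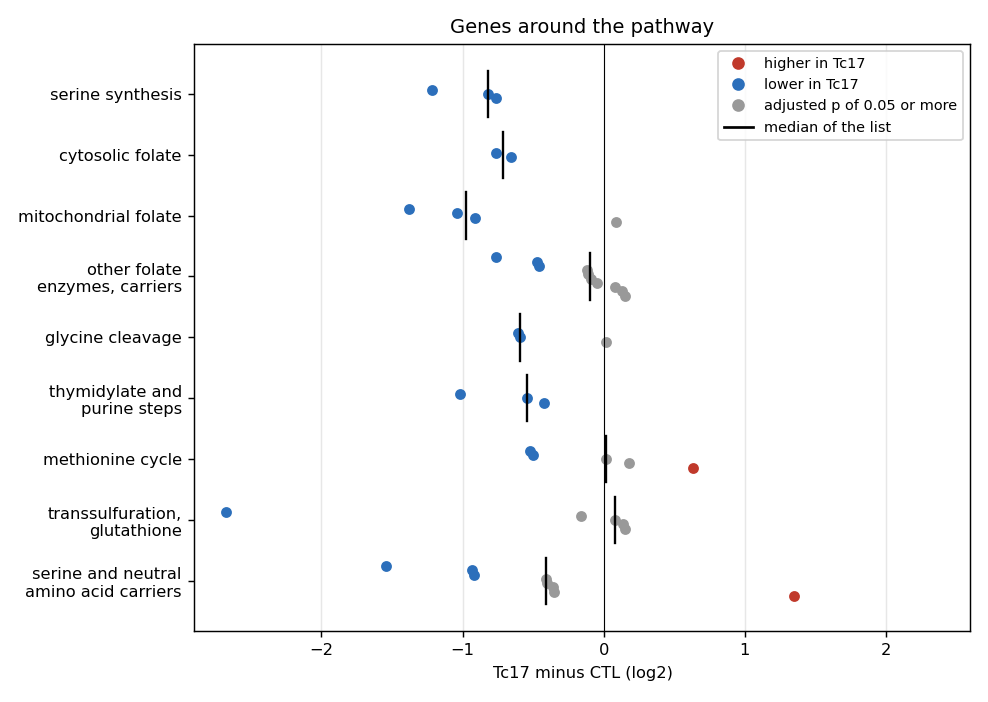
Log2 difference between Tc17 and CTL (horizontal axis) of each tested gene in the 3 groups of enzymes and in 6 lists around them. Genes called higher (limma, adjusted p under 0.05) are red, those called lower are blue and the rest are grey. The median of each list is drawn as a black line, from -0.97 for the mitochondrial folate enzymes to 0.08 for transsulfuration and glutathione. *Cth* (-2.68) lies farthest left and *Sfxn3* (1.35) farthest right.

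Transcripts of the known activators *Atf4* and *Myc* were lower in Tc17 cells, as were those of 8 of the 9 enzymes. The part of these activators in the difference was not tested, and the arrays did not measure their protein or activity. *Atf4* was at 6.52 and 6.20 in Tc17 cells, against 7.42 and 7.35 in CTLs (-1.02 ± 0.14, limma adjusted p = 6.52e-04). Of 15 genes in a list of *Atf4* and its targets outside the pathway, 13 were lower and 1 higher, where 7.44% of all genes tested were lower and 8.22% higher. The median was -0.89, and the largest falls were those of *Atf3* (-2.89) and *Trib3* (-1.58). *Ddit4* was higher (0.45) and *Atf5* (-0.15) did not pass. Of the 14 calls 10 held in each fit without one array. Those of *Cebpb*, *Nupr1* and *Eif4ebp1*, lower in Tc17 cells, were lost in at least 1 such fit, and that of *Ddit4* in each of the 4. In the MYC network 1 of 7 genes was lower and 2 were higher, all 3 also in each fit without one array. *Myc* was at 8.70 and 8.89 in Tc17 cells, against 9.86 and 9.49 in CTLs (-0.88 ± 0.15, limma adjusted p = 0.00249), and *Mxd4* (1.59) and *Mxd1* (1.03), which encode antagonists of MYC, were higher. The other 4 genes tested of the MYC network (*Max*, *Mxi1*, *Mnt*, *Mlx*) did not pass. When every row of the table was tested, *Myc* did not pass (limma adjusted p = 0.0857), while *Mxd4* and *Mxd1* did.

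Across the genes tested, likeness to the enzymes was measured as the root mean square distance between values centred over the 4 arrays. The 3 genes nearest to the mean of the serine synthesis enzymes were *Wdr74*, *Wdr12* and *Nhp2* (0.0302 to 0.0389 on the log2 scale). Nearest to the mean of the cytosolic folate enzymes were *Tbrg4*, *Herpud1* and *B3gnt2* (5.76e-04 to 0.0189). Nearest to the mean of the mitochondrial ones were *Tex30*, *Ncl* and *E2f3* (0.0130 to 0.0170). With 4 arrays this likeness is mostly that of the group difference, which was between -0.95 and -0.68 for these 9 genes. The mean of the mitochondrial enzymes takes in *Mthfd1l* (0.09) as well as *Mthfd2* (-1.38), so genes near it need not resemble any single member.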

How the data were processed

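Total RNA was amplified, biotin-labeled and hybridised to Affymetrix arrays. The authors deposited RMA values, read here as log2 from their range (1.18 to 13.7). The sources used here do not give the log base, version or settings. Quantile normalisation hides a shift of all transcripts, and there were no detection calls. Of 35557 rows, the platform annotation gave 1 gene symbol to 21789, several to 1621 and none to 12147. Each gene was read from its brightest probe set (mean of the 4 arrays), and genes with a mean under the 25th percentile (2.59) were left out.

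The contrast of Tc17 and CTL was fitted with lmFit and eBayes of limma 3.58.1 in R 4.3.3, unpaired and two-sided, with Benjamini-Hochberg adjustment over 14953 genes and a threshold of 0.05. The script was tested on simulated data. Differences are Tc17 minus CTL with the SE of the fit. The fit drew each gene's variance toward one shared by all genes tested (8.98 prior against 2 residual degrees of freedom). SEs, intervals and p-values therefore rest mostly on the shared spread. SDs are of 2 arrays. Members and lists were chosen with earlier results of these data known. Named genes were all members, per list the 2 most increased and the 2 most decreased genes among those that passed (with none, that of smallest p), and the 3 nearest in pattern to each enzyme group. Others were named after their values were seen. Python 3.11.15 (pandas 2.3.3, SciPy 1.17.1, matplotlib 3.10.9) was used for tables, the permutation test and plots. Alternatives were other filters, scalings, moderation, probe-set rules and thresholds, a replicate block, and leaving out each array.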

Additional observations from a re-analysis of the deposited data

How the results depend on the processing

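The count of 8 enzymes lower and 0 higher stayed at 8 and 0 with cyclic loess, with median centring, with robust moderation on an intensity trend, with the mean of probe sets, and with no filter or one at the median level. With a stricter call (0.01 for the adjusted p, 0.75 for the log2 difference) it was 7 and 0, and without one array 7 to 8 and 0. When every row of the table was tested, with no filter and no choice of probe set (35557 rows in place of 14953 genes), 3 of the 8 passed (*Mthfd2*, *Phgdh* and *Shmt1*), and the adjusted p of the other 5 was between 0.0617 and 0.118, with the same differences. The cause was not tested. Over all genes 1113 were lower and 1229 higher, against 182 and 324 when every row was tested. Without Tc17 replicate 2, 587 were lower, and without CTL replicate 1, 650 were. Of 96 recomputed differences of the 8 enzymes, 90 kept their call, 6 lost it and 0 changed sign. Leaving out Tc17 replicate 2 or Tc17 replicate 1, *Mthfd1l* ranged from -0.00052 to 0.17 and *Atf5* from -0.34 to 0.051, neither past the threshold. *Sfxn1* and *Slc1a5* passed, lower in Tc17 cells, with the intensity trend (-0.36 and -0.35). The median over all genes was between -0.032 and 0.02 under the scalings tried. Deviations of same-numbered arrays had a correlation of 0.0195, so the numbers were not taken as pairs. With the replicate block 8 enzymes were lower, and the calls of *Atic* (-0.42) and *Ddit4* (0.45) were lost. Differences at levels near the array medians are limited by background, as for *Aldh1l2*.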

Other observations

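Replicates of the Tc17 group were unequal for these enzymes. The 8 lower genes each had a lower value in Tc17 replicate 2 than in Tc17 replicate 1, by 0.05 (*Shmt1*) to 0.48 (*Shmt2*), and *Mthfd1l* went the other way, with 7.80 in replicate 2 and 7.62 in replicate 1. Of all 14953 genes tested, 54.8% were lower in Tc17 replicate 2, and of the 1113 genes called lower in Tc17 cells, 67.9% were. The median gap (replicate 1 minus replicate 2) was 0.25 for the 9 enzymes, 0.10 for the 1113 genes and 0.02 for all genes tested. The CTL arrays differed by 0.23 at most (*Mthfd1*) among the 9.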
